A study of Mus musculus with 4 samples.

Results

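The genes described here make, sense, take up, move and store cholesterol. They are 32 named genes out of 21887 protein-coding genes on placed mouse chromosomes, and the data are the chromatin sites of a tagged MafG protein in liver. The members were taken from a list of cholesterol genes, and all 32 were found by symbol. The list was chosen with earlier results of these data known, so the choice was not blind to them. By role they are 7 enzymes of early synthesis, 11 enzymes of late synthesis, 5 regulators, and 9 genes of uptake, trafficking and storage. For each gene, peaks were counted within 1 kb and within 10 kb of either end of the gene, by the midpoint of the peak, and inside the gene.

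The study used chromatin immunoprecipitation with sequencing (ChIP-seq) on livers of C57BL6/J mice. There were 2 libraries from livers that overexpressed MafG fused to BLRP, a short peptide tag, under a treatment labelled Ad BLRP MAFG. The control was 2 libraries from livers with the treatment labelled Ad BLRP Control. All 4 libraries were precipitated with the same Avi-tag antibody, and the labels give neither age nor sex nor the time after treatment. The tagged protein was overexpressed in every BLRP-MafG liver, so sites may be listed that the native protein does not occupy. The result is 1 list of 68763 peaks of BLRP-MafG over control, with 1 value per peak and none per library. It rests on 20406492 BLRP-MafG tags (mapped reads) and an implied 1.72e+07 control tags. Differences between animals could therefore not be measured, and every interval below is an exact 95% interval of the counting of tags alone. Peak height is the normalized tag count, which is the BLRP-MafG tags in the peak scaled to 10000000 tags in total, and its median over the list was 12.3.

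Cholesterol is built from acetyl-CoA. The early enzymes run through mevalonate to farnesyl diphosphate, and the late enzymes join farnesyl units to squalene, close the ring and trim lanosterol to cholesterol. The transcription factors encoded by Srebf1 and Srebf2 drive these genes; SCAP escorts them from the endoplasmic reticulum when sterol is low, and the INSIG proteins hold SCAP back when it is high. Liver also takes up cholesterol from lipoproteins, frees it in lysosomes, exports it by ABCA1, or stores it as ester. MafG belongs to the small MAF proteins, which are basic leucine zipper proteins that bind DNA and have no activation domain of their own. It acts as a dimer with itself or with partners such as NRF2 at MAF and antioxidant response elements.

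The peaks that lay at annotated start sites are shown first. Annotated starts were used for 25 members. A promoter window runs from 250 bases before to 50 after a start, and 8 of the 25 members (32%) had a listed peak overlapping one, against 12.9% of 17492 protein-coding genes with such windows. These 8 were Cyp51, Sc5d, Dhcr7, Ebp and Nsdhl of late synthesis, the regulators Srebf1 and Insig2, and Abca1. Of early synthesis, 0 of 6 members had one. The sequence under 6 of these peaks follows, as far as it lies in the window and up to 29 bases past the start. It is from RefSeq, build GRCm38.p6, on the strand of the gene from 5′ to 3′. Capitals mark matches to the MAF core TGCTGA, the antioxidant response element core TGACNNNGC and the AP-1 core TGANTCA, on either strand.
Cyp51 (chr5:4104668-4104861, minus strand): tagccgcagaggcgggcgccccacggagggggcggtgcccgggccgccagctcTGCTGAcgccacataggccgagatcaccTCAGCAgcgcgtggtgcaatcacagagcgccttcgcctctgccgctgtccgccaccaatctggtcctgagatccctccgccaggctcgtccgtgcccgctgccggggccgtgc
Sc5d (chr9:42264271-42264408, minus strand): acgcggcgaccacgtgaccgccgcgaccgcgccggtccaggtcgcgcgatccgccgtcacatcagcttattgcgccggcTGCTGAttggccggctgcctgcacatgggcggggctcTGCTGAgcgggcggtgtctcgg
Abca1 (chr4:53159885-53160085, minus strand): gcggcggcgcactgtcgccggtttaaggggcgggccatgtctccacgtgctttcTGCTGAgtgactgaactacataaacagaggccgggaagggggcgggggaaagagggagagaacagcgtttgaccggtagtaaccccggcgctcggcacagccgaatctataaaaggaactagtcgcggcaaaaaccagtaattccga
Dhcr7 (chr7:143829978-143830178, plus strand): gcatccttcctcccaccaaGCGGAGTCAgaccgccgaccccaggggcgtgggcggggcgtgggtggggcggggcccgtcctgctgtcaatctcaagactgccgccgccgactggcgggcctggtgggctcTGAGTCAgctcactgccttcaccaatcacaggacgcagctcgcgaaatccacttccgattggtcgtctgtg
Ebp (chrX:8193483-8193565, minus strand): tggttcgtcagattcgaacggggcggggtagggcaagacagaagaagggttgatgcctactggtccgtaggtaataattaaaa
Nsdhl (chrX:72918376-72918550, plus strand): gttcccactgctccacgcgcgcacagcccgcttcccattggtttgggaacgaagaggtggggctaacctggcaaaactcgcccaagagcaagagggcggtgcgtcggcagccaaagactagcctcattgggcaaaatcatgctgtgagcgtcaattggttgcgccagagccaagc

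The core TGCTGA was found under the peak at Cyp51, Sc5d and Abca1. Cyp51 held 2 copies, one on each strand, which begin 111 and 83 bases before the start. Sc5d held 2 on the strand of the gene, of which one begins 29 bases before and one 8 bases after the start. Abca1 held 1. At Srebf1, whose letters are not shown, it also lay under the peak and began 39 bases after the start. Dhcr7 held no TGCTGA but 1 AP-1 core and 1 antioxidant response element core on the minus strand. Under the peaks at Ebp and Nsdhl none of these motifs was present in the letters shown. A match describes the letters and does not show that the factor sits on them.

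Over the member windows overlapped by a peak, 4 of 9 (44.4%) held TGCTGA. The same share was 22.4% of the 2432 windows overlapped by a peak over all genes, and 18.1% of all 21263 windows. It was 45.9% in the 98 windows with a peak of 30 or more. Without regard to peaks, 6 of the 33 member windows (18.2%) held it, close to the share of all windows. The sterol response element core TCACNCCAC, where SREBP proteins bind, was present in 1 of 33 member windows and in 0 of the 9 with a peak; over all windows it was present in 1.19%. TGCTGA and TGACNNNGC can share letters, as can TGCTGA and TGANTCA. With 9 windows these shares are coarse.

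Most cholesterol genes had BLRP-MafG peaks close by, more often than protein-coding genes at large, but the peaks were of ordinary height. Within 1 kb of either end, 18 of 32 members (56.2%) had a listed peak, against 24.5% of all protein-coding genes. Inside the gene the count was 26 of 32 (81.2%), against 50.5% of all. Within 10 kb of either end it was 27 of 32 (84.4%), against 69.2% of all. Inside or within 10 kb it was 29 of 32 (90.6%), against 74.5%. The median of the highest normalized tag count per gene, with genes without a peak at 0, was 15.4 over members and 13.7 over all protein-coding genes. A height of 30 or more was reached by 10 of 32 members (31.2%), close to the 28.0% of all genes.

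**Figure D1:**
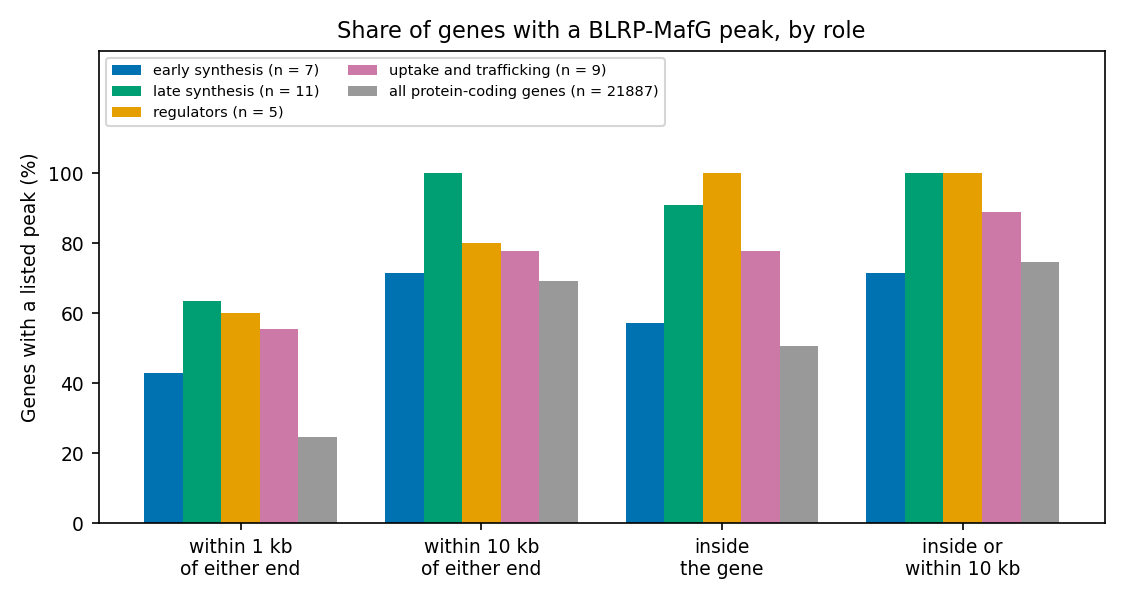
Percent of genes with a listed BLRP-MafG peak (vertical axis) by distance class (horizontal axis), with a bar for each role and, at the right of each class, all 21887 protein-coding genes. The early synthesis bars stand nearest to the grey bars in each class, and late synthesis reaches 100% within 10 kb.

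Gene length bears on these shares, because a longer gene can hold more peaks. No member was shorter than 5.03 kb, whereas the shortest protein-coding gene was of 0.144 kb, and the medians were 18.9 kb in members and 17.2 kb in all genes. Among genes of 5 to 50 kb, a peak lay within 1 kb of an end in 16 of 28 members (57.1%), against 27.4% of 11908 protein-coding genes. Inside the gene the shares were 78.6% and 50.5%, and inside or within 10 kb they were 89.3% and 77.5%.

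The members together held 81 listed peaks, of which 57 lay inside a gene and 24 outside. Their heights ran from 5.39 to 107, with a median of 12.3 and quartiles of 8.82 and 17.2, against a median of 12.3 and quartiles of 7.84 and 23.5 in the whole list. The control held 0 tags in 34 of them (42.0%) and at most 6. Each had passed the peak caller's 10-fold excess over control, and in the authors' deposited table the largest p over control among them was 1.11e-07, a Poisson p that weighs tags and not animals. Of the 81 peaks, 13 lay nearer to an end of another protein-coding gene. The peaks closest to the 1 kb limit were one of Npc1 at 981 bp, inside it, and one of Hsd17b7 at 1099 bp, beyond it. At the 10 kb limit they were one of Insig2 at 9622 bp and one of Scap at 10039 bp.

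**Figure D2:**
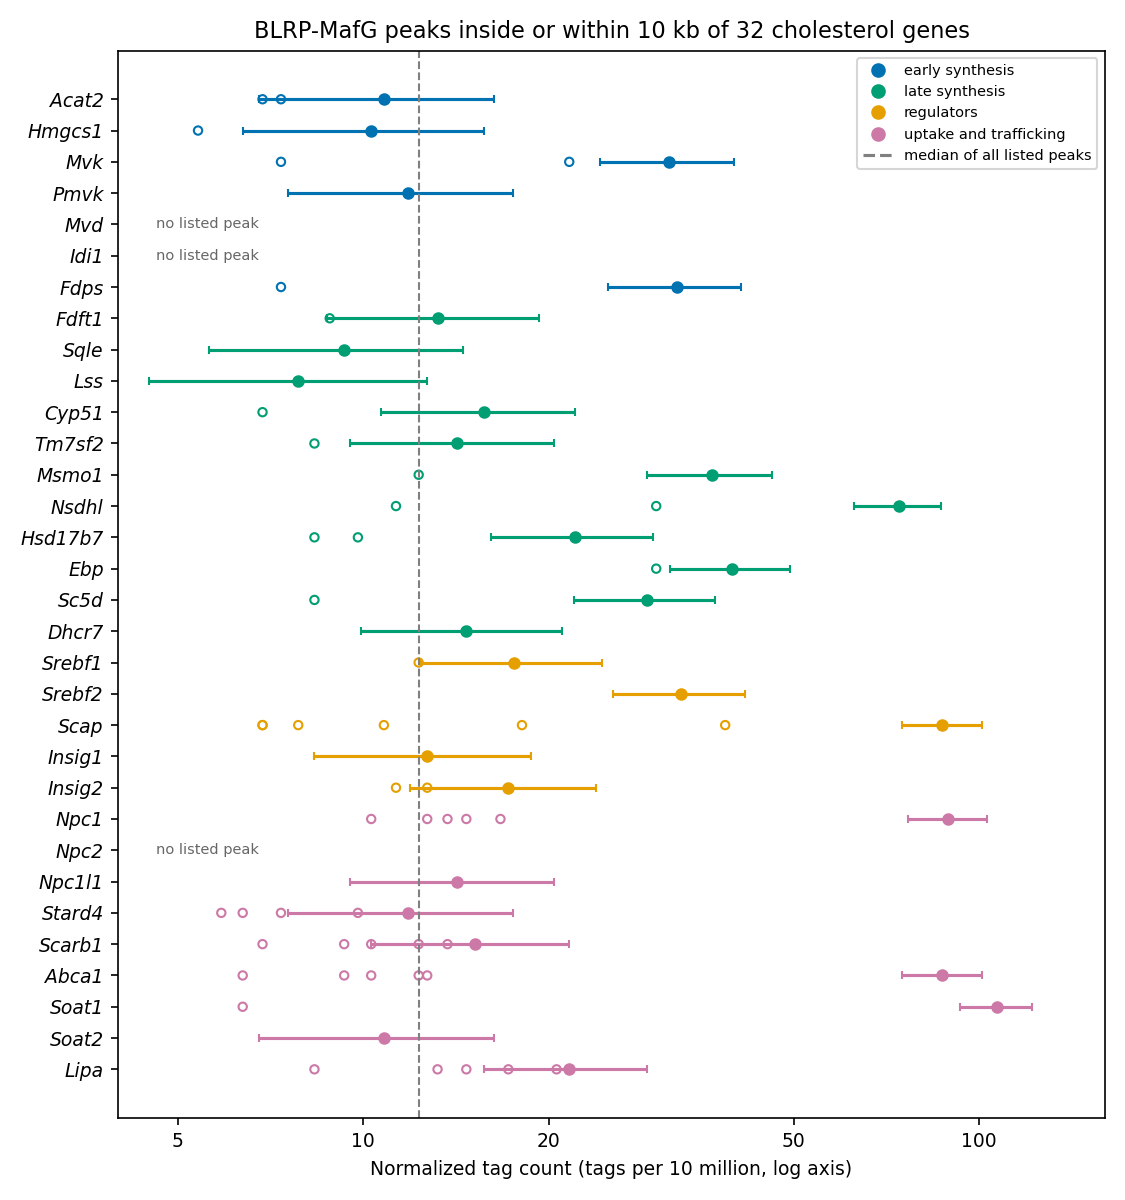
Normalized tag count (tags per 10000000, log axis) of every listed peak inside or within 10 kb of each member, in rows by role. Filled points are the highest peak of a gene with its exact 95% Poisson interval, open points are its other peaks, and the dashed line is the median of all listed peaks, 12.3; Soat1, Npc1, Scap, Abca1 and Nsdhl stand highest.

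In early synthesis, 5 of 7 genes (71.4%) had a peak inside or within 10 kb, close to the 74.5% of all protein-coding genes. Within 1 kb of an end, 3 of 7 (42.9%) had one, against 24.5% of all. The median highest peak was 10.8, against 13.7 over all. Fdps, which makes farnesyl diphosphate, had a peak of 32.3 (25.0 to 41.1) at chr3:89101841-89102041, 26 bp inside one end of the gene. With 3 control tags, the ratio was 18.6 (6.08 to 92.3). Mvk, the mevalonate kinase gene, held one of 31.4 (24.2 to 40) inside it at chr5:114447921-114448121, 3752 bp past its start, where 1 control tag gave a ratio of 54.0 (9.35 to 2165). Mvk also had one of 21.6 lying 800 bp outside its last end. These were the tall peaks of the group. Hmgcs1, which makes HMG-CoA, had a peak of 10.3 (6.37 to 15.7) 219 bp inside its far end, 17690 bp from its start. Acat2, an acetoacetyl-CoA thiolase gene, had its highest peak, of 10.8, inside the neighbouring related gene Acat3. Reads of such related copies can be split by mapping. Pmvk, the phosphomevalonate kinase gene, had a single peak of 11.8 that lay 8834 bp outside it.

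The early genes Mvd and Idi1 had no listed peak inside or within 10 kb. For Mvd, the diphosphomevalonate decarboxylase gene, the nearest lay 17843 bp away at chr8:122415653-122415853, with a height of 14.2 (9.52 to 20.4), closer to Zc3h18. For Idi1, the isopentenyl diphosphate isomerase gene, the nearest lay 18906 bp away and was low, at 7.35 (4.11 to 12.1). On its other side, 20448 bp away and closest to an end of Wdr37, stood one of 449.4 (421 to 479) at chr13:8865058-8865258. It was 82nd in the whole list, with 2 control tags and a ratio of 387 (107 to 3198). This peak was far taller than any peak of a member inside or within 10 kb, but lay outside that window. Peaks beyond 10 kb were not described for members with a peak inside or within 10 kb, so the windows compared are unlike. Genes without a listed peak may still hold signal under the limits of the peak caller.

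All 11 late synthesis genes were within 10 kb of a peak, against 69.2% of all protein-coding genes. Within 1 kb, 7 of 11 (63.6%) had one, against 24.5% of all. The tallest stood at Nsdhl, Ebp and Msmo1. Nsdhl, a sterol dehydrogenase gene on chromosome X, had a peak of 74.0 (62.7 to 86.8) at chrX:72959404-72959604, 976 bp past its last end. With 3 control tags, the ratio was 42.5 (14.3 to 208). Nsdhl also had one of 29.9 (22.9 to 38.4) lying 7805 bp before its start, nearer to Cetn2, and one of 11.3 (7.14 to 16.9) with its midpoint 45 bp before its start. So its start carried the lowest of its 3 peaks. Ebp, the sterol isomerase gene, also on X, held 39.7 (31.5 to 49.3) inside it at chrX:8188134-8188334, where 1 control tag gave a ratio of 68.3 (11.9 to 2732). At its start, 47 bp past it, stood one of 29.9 (22.9 to 38.4), the highest of any member within 1 kb of an annotated start. The control held 0 tags there, and BLRP-MafG was 17.2-fold higher against a floor of 3 control tags.

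Msmo1, the methylsterol monooxygenase gene that acts before Nsdhl, had one of 36.8 (28.9 to 46.1) at chr8:64712565-64712765, 5458 bp past its last end, and one of 12.3 at 823 bp past its start. Sc5d, a sterol desaturase gene, had one of 28.9 (22 to 37.3) with its midpoint 8 bp before its start, 4 control tags and a ratio of 12.4 (4.61 to 47.2). Hsd17b7, which encodes a sterol ketone reductase, had 22.1 (16.1 to 29.5) at 155 bp outside its last end. The peaks of Msmo1 and Sc5d lay above the upper quartile of the list, 23.5, and the interval of Msmo1 overlapped that of Ebp. Cyp51, the lanosterol demethylase gene, had 15.7 (10.7 to 22.1) with its midpoint 64 bp before its start. With 0 control tags, this peak was 9-fold higher against the same floor. Tm7sf2, a sterol reductase gene, had 14.2 (9.52 to 20.4) at 448 bp past its start, but slightly closer to an end of Vps51. Dhcr7, which carries out the last reduction to cholesterol, had its single peak of 14.7 (9.92 to 21.0) at a start inside the gene, 6911 bp from its first end. Their intervals all overlapped. The enzymes that form and close squalene were lowest: Fdft1, the squalene synthase gene, had 13.2 (8.72 to 19.3), Sqle, the squalene epoxidase gene, 9.31 (5.61 to 14.5), and Lss, the lanosterol synthase gene, 7.84 (4.48 to 12.7). All 3 of these peaks lay inside the gene and over 4.8 kb from either end.

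All 5 regulators held at least 1 peak inside the gene, against 50.5% of all protein-coding genes. Their median length was 28.3 kb, against 17.2 kb in all genes. Scap had 7 peaks inside or within 10 kb, the joint most of the members with Scarb1. Its highest, of 87.2 (74.9 to 101), lay inside the gene at chr9:110369318-110369518, 36062 bp past a start, with 2 control tags and a ratio of 75.1 (20.5 to 625). One of 38.7 (30.6 to 48.2) lay 1569 bp past its last end, inside Ptpn23, and one of 18.1 (12.8 to 25.0) lay 576 bp before its start. Srebf2, which encodes the SREBP that favours cholesterol genes, held a single peak of 32.8 (25.4 to 41.7) at chr15:82184737-82184937, 37568 bp past its start. It lay 20542 bp from the nearer end, so Srebf2 is counted inside but not within 10 kb of an end. Srebf1, whose SREBP-1c form favours fatty acid genes, had 17.6 (12.4 to 24.4) at 85 bp past one of its starts, with 3 control tags and a ratio of 10.1 (3.20 to 51.4). Insig2 had 17.2 (11.9 to 23.9) inside it and 12.7 (8.32 to 18.7) near a start. Insig1 had 2 peaks of 12.7 each, at 658 bp past its start and 3849 bp outside its last end. The intervals of Srebf1, Insig1 and Insig2 overlapped, and that of Scap lay above all of them.

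Among genes of uptake, trafficking and storage, 8 of 9 (88.9%) had a peak inside or within 10 kb, against 74.5% of all protein-coding genes. The tallest peaks lay deep inside genes. Soat1, which esterifies cholesterol for storage, held the highest peak of all members, of 106.8 (93.1 to 122), at chr1:156450578-156450778, 23650 bp past its start. The control held 0 tags there, and the ratio was 61.3 against the floor of 3 tags. Soat2, the form of this enzyme typical of hepatocytes and intestine, had a single low one of 10.8 (6.76 to 16.3) 274 bp outside one end. The intervals of Soat1 and Soat2 did not overlap. Npc1, whose product moves cholesterol out of lysosomes, held 6 peaks inside it. The highest, of 89.2 (76.7 to 103) at chr18:12200720-12200920, had a ratio of 154 from 1 control tag (27.2 to 6097), and lay nearer to an end of Rmc1. Npc2, which hands cholesterol to NPC1, had none within 10 kb. The nearest to it lay 33760 bp away, at 9.31 (5.61 to 14.5). Of the lysosomal pair, Npc1 thus had a tall peak and Npc2 none listed.

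Abca1, the exporter that loads apolipoprotein A-I, held 6 peaks inside it. The highest, of 87.2 (74.9 to 101), lay at chr4:53086741-53086941, 73054 bp past its start, with 6 control tags and a ratio of 25.0 (11.3 to 69.1). The one on its start was of 12.3 (7.93 to 18.1). Scarb1, the receptor gene for high-density lipoprotein, had 7 peaks, all between 6.86 and 15.2. Lipa, the lysosomal acid lipase gene, had 6, from 8.33 to 21.6. Stard4, a sterol carrier gene, had 5, from 5.88 to 11.8, and Npc1l1, a sterol uptake gene, had 1 of 14.2. None of these peaks reached 30. The highest peak was 16.8 times the second in Soat1, 6.87 times in Abca1 and 5.34 times in Npc1, but 1.05 times in Lipa, 1.20 times in Stard4 and equal in Scarb1 as deposited.

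**Figure D3:**
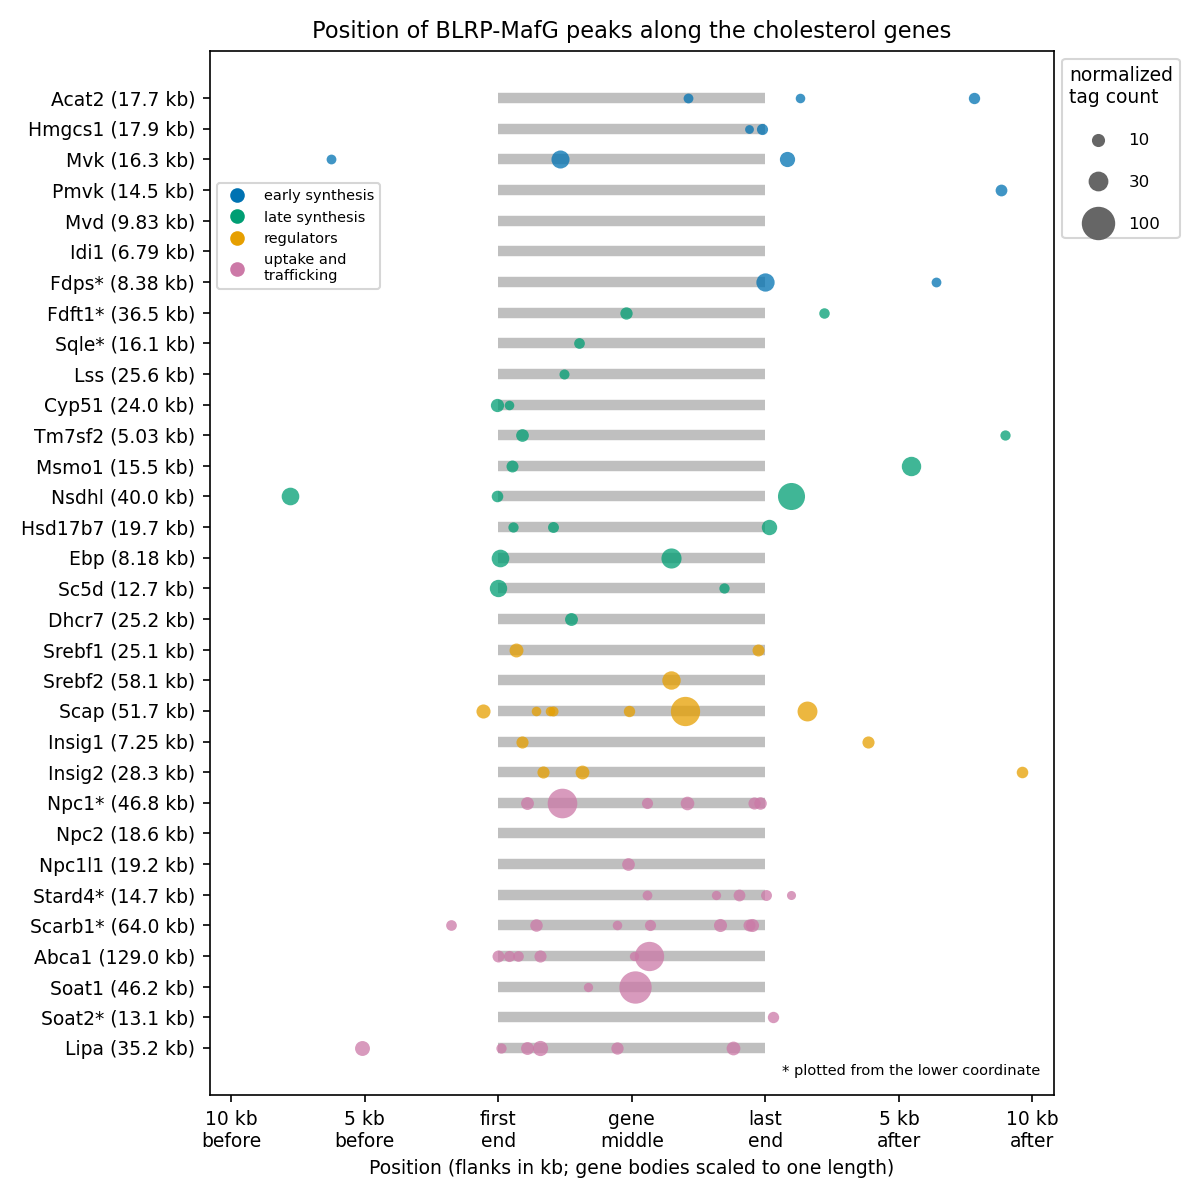
Position of each listed peak along its gene, with gene bodies (grey) scaled to one length and flanks in kb; point area grows with normalized tag count, and genes marked with an asterisk are drawn from the lower coordinate, the others from the start side. The largest points, at Soat1, Npc1, Abca1 and Scap, lie within gene bodies, and late synthesis genes have smaller points at the first end.

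Synthesis genes and uptake and trafficking genes differed more in the number of peaks than in the share of genes with one. Inside or within 10 kb, 16 of 18 synthesis genes (88.9%) and 8 of 9 uptake and trafficking genes (88.9%) had a peak. Over all protein-coding genes the share was 74.5%. Within 1 kb the counts were 10 of 18 (55.6%) and 5 of 9 (55.6%), against 24.5% of all. The median highest peak was 14.4 in synthesis genes and 15.2 in uptake and trafficking genes. The median number of peaks per gene was 2 in synthesis genes and 5 in uptake and trafficking genes. Synthesis genes were shorter, with a median of 16.2 kb against 35.2 kb. Per length, synthesis genes held 17 peaks in 320 kb, or 5.31 per 100 kb, and uptake and trafficking genes 29 in 387 kb, or 7.49 per 100 kb. Over all protein-coding genes the density was 3.21 per 100 kb, and over those of 5 to 50 kb it was 4.00. With so few genes and no value per library, none of these differences could be tested.

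**Figure D4:**
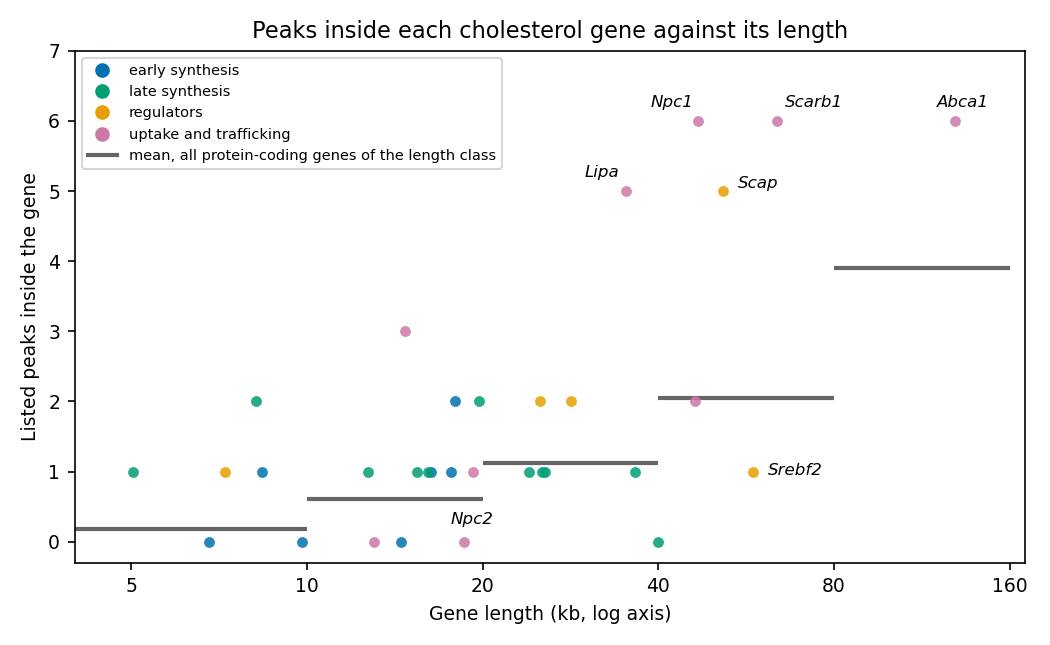
Number of listed peaks inside each member (vertical axis) against gene length in kb (log axis), by role; grey lines are the mean over all protein-coding genes in length classes with edges at 10, 20, 40, 80 and 160 kb. Npc1, Scarb1, Scap, Lipa and Abca1, with 5 or 6 peaks, lie above the line of their class; Nsdhl, with 0 peaks inside, lies farthest below its line, and Npc2 and Srebf2 are among the other members below theirs.

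Position relative to the start could be described only for the members with an annotated start. Most of these in late synthesis and among regulators had a listed peak within 1 kb of a start, and none in early synthesis had one. With 6 such early genes, a count of 0 is coarse beside the 21.7% of protein-coding genes. The difference between roles was not tested. Within 1 kb of an annotated start, 13 of 25 members (52%) had a peak, against 21.7% of protein-coding genes with a start. The counts were 0 of 6 in early synthesis, 7 of 9 in late synthesis, 4 of 5 among regulators and 2 of 5 in uptake and trafficking. On the promoter window itself lay peaks of 5 of 9 late genes and 2 of 5 regulators, against 12.9% of protein-coding genes with such windows. The 5 regulators had 10 annotated starts between them and the 9 late genes 11, so regulators had more starts per gene at which a peak could lie. The early genes Hmgcs1 and Mvk had theirs within 1 kb of the last end instead. Fdps, with a peak of 32.3 at 26 bp inside an end, is not among the 6, because its start was not used here. The late genes Fdft1 and Sqle are likewise not among the 9, and neither had a peak within 1 kb of either end. Among the 25 members with an annotated start, which held 57 of the 81 peaks, no peak within 1 kb of a start reached 30. The height of 30 was chosen after the values were seen and lies just above the tallest of these, 29.9, so this count hangs on the cut. The 14 peaks within 1 kb of a start had a median height of 13.4 and ran from 6.86 to 29.9. The 43 farther away had a median of 12.3 and reached 107, with 9 of them at 30 or more. Over all genes 6.75% of 3807 peaks within 1 kb of a start reached 30, against 19.4% of 64904 others. The medians over all genes were 10.3 within 1 kb of a start and 12.3 farther away. Member peaks were classed by the starts of their own gene and lay inside or within 10 kb of it. All peaks were classed by any annotated start at any distance, so the sets are unlike. In members the quartiles overlapped, from 12.3 to 17.1 near a start and from 8.33 to 21.9 farther away.

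Of 29 other genes of the pathway reported here, 28 were found by symbol. Inside or within 10 kb, 25 of these (89.3%) had a peak, against 74.5% of all protein-coding genes. The count within 1 kb was 11 of 28 (39.3%), against 24.5% of all. The median highest peak was 22.1, against 13.7 over all. The 3 of these with the highest peaks were Vldlr, Lima1 and Gramd1c. Vldlr, a lipoprotein receptor gene, had one of 230.3 (210 to 252) at chr19:27255744-27255944, 1613 bp outside it. With 0 control tags, this peak was 132-fold higher against the floor of 3. Lima1, whose product binds NPC1L1 in intestine, held one of 226.9 (207 to 249) at chr15:99813740-99813940. Gramd1c, of a family of sterol transfer proteins, held one of 70.6 (59.5 to 83.1) at chr16:43990647-43990847, with 4 control tags and a ratio of 30.4 (11.6 to 113). The peaks of Vldlr and Lima1 were taller than any peak of the 32 members. In 6 genes of SREBP processing and sterol sensing, 0 had one within 1 kb, against 24.5% of all protein-coding genes. The SREBP protease gene Mbtps1 had none within 10 kb. Of 5 enzymes of synthesis branches, all 5 had a peak within 10 kb, against 69.2% of all genes. Inside or within 10 kb, a height of 30 or more was reached by 2 of these 5 (40%), against 28.0% of all genes. With so few genes these shares are coarse.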

How the data were processed

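Peaks of BLRP-MafG over control were called by the authors with HOMER findPeaks on the mm10 build, per the file headers: size 200 bp, a 10-fold excess over control at p of 1e-06 and 4 times the level of the surrounding 10 kb. Bowtie2 and HOMER are named without versions in the submitters' processing notes. Whether each tag collection joined both libraries of a group is not stated. The deposited signal is the tag count scaled to 10000000 tags and the unscaled control tags (0.5 for 0 tags). The deposited ratios are linear folds over control, surroundings and expected unique positions. The p-values the authors deposited come from the caller's Poisson model. The deposited peak score was not used.

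Scaled counts times the header's total came within 0.11 of whole tags in 100% of peaks. These tags gave exact Poisson intervals of height and, conditional on their sum, exact binomial intervals of the ratio. For ratios, 0 control tags were replaced by a floor of 3. A ratio to this floor leaves out the counting error of the BLRP-MafG tags and is not a lower bound. Intervals and floors cover at most counting error. Genes (RefSeq, GRCm38.p6, the same assembly as mm10) were matched by symbol; exons and introns were not separated. All members were described, with the highest peak in full, or the nearest peak where there was none. Peak assignment was tested on simulated data (Python 3.11.15, pandas 2.3.3, scipy 1.17.1). Members, lists and motifs were chosen with earlier results of these data known, and the height of 30 and the distances from starts were added after the values were seen. No test over genes was run. From the list of other pathway genes, 1 gene is not reported here.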

Additional observations from a re-analysis of the deposited data

How the results depend on the processing

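Over the planned and added alternatives, 81 values stayed close to those reported and 15 moved, by over 1.5 times for counts or beyond the counting interval for medians. That interval is of a single peak near the median in height and does not measure the spread over genes. By this rule the early synthesis median counts as close, though it went from 10.8 to 7.35 at 20 times the control. With peaks of at least 20 times the control only, members with a peak within 1 kb fell to 10 of 32 (against 15% of all genes) and those with one inside to 16 of 32 (against 40.8% of all genes). By role, that setting left 0 early and 3 uptake and trafficking genes within 1 kb, and 1 early gene, 5 late genes and 3 regulators inside. The median highest peak of regulators became 12.3. With peaks at or above the median of the list only, early synthesis had 2 of 7 genes within 10 kb (against 46.2% of all genes) and 2 inside (against 35.8% of all), late synthesis 5 of 11 inside, and uptake and trafficking 2 of 9 within 1 kb (against 11.2% of all). With a window of 500 bp from either gene end, 0 of 5 regulators had a peak (against 17.3% of all genes). Srebf1 and Insig2 had peaks 85 and 86 bp past an annotated start that is not an end of the gene. Taking either gene end in place of the start gave 2 early genes within 1 kb, against 0. Ranked by deposited fold over control, the highest peak was the same in 17 of 29 members; in 12 another peak, lower in tags, came first. The settings on fold, height and window remove peaks by construction; the cause of the other changes was not tested. The list holds 1 value per peak, so leaving out a library was not run. No paired analysis was possible because no value per library was used here. At the median peak of 12.3, counting error alone spans 7.93 to 18.1.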

Other observations

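Nsdhl and Ebp stood high among peaks of their own chromosome. Chromosome X held 1592 peaks with a median normalized tag count of 9.31, and 10.6% of them reached 30, against 18.7% of the whole list. The peak past the last end of Nsdhl, of 74.0, ranked 34th on X, and the peak inside Ebp, of 39.7, ranked 100th. In the whole list they ranked 3939 and 9165.

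Peaks of cholesterol genes stood out less from their surroundings than the list at large. The fold over the surrounding 10 kb, in the authors' deposited table, had a median of 8.29 in the 81 member peaks and 16.2 in all peaks. Member peaks lay inside or within 10 kb of a gene, and all peaks lay at any distance, so the sets are unlike. Peaks near other genes were not set apart. Peaks within 1 kb of any annotated start had a median of 8.42, and the others had 17.0. In members with an annotated start the medians were 8.16 within 1 kb of the gene's own start and 8.76 farther away.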
